A study of Mus musculus with 3 samples.

Results

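The Slit, Robo, Dcc and Unc5 guidance genes are the 10 mouse genes Slit1, Slit2, Slit3, Robo1, Robo2, Dcc, Unc5a, Unc5b, Unc5c and Unc5d, among 20665 protein-coding genes on chromosomes 1 to 19. Their members were taken by name, and their data are the 29552 bins of 200 bp, of 12313737 in all, that overlap each gene's span or the 5 kb on either side of it. Methylation came from MBD-seq: fragments of DNA that carry methylated CpG sites are captured on a binding protein and then sequenced. The organoids, which are epithelial cultures grown in gel, came from the proximal colon of male mice aged about 40 days that were heterozygous for a Braf allele that Cre recombinase switches to BrafV600E.

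There were 3 groups, each with 1 library. Organoids of the Braf Base medium group received Cre by lentivirus and were then selected for growth without the niche factors of stem cells, in Base medium. Organoids of the Braf full medium group received Cre and stayed in full medium, which holds Wnt3a, R-spondin, Noggin and EGF. Organoids of the EV group received the lentiviral backbone without Cre and stayed in full medium, so the allele was carried but not switched on. The culture time was 5 months plus a final 3 weeks in each group. All carry the line name BRAF3 in the labels, and nothing gives a further culture or animal, so each difference below compares 2 libraries and no p-value is possible. No RNA was measured in these libraries, so the epithelial identity of the cultures was not checked by expression. None of 10 markers of colon epithelium was covered at its start, as defined below, in any library, and neither was any of 6 immune markers. Of 5 neural and glial markers 3 were covered in Braf Base medium, 1 in Braf full medium and 0 in EV. Of 8 markers of fibroblasts and smooth muscle the numbers were 1, 2 and 1 in that order, and of 4 endothelial markers 1, 0 and 0. The share of all genes covered at a start is not set beside these counts, so they set no marker list apart from other genes. The part of other cell types in the results was not tested.

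Slit proteins are secreted ligands that bind Robo receptors on the cell surface and repel growing axons. Netrins attract cells and axons through Dcc and repel them through Unc5 receptors. Dcc and the Unc5 receptors are called dependence receptors because they can trigger cell death when netrin is absent, and they are expressed in the intestinal epithelium as well as in neurons. Several human orthologs, SLIT2, SLIT3 and UNC5C among them, are known to be methylated at their promoters in colorectal cancers.

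The letters around a gene's start bear on these data because capture needs methylated CG pairs. RefSeq promoters on GRCm38.p6, the patched form of mm10, gave a transcript start for 7 of the 10 genes. The 250 bases before the start are shown for 5 of them, chosen because the results turn on their starts: Slit3 and Unc5c for coverage across the start, Slit2 for coverage that began just after it, Robo1 for coverage in every library, and Unc5b for a CpG-rich start with low coverage in every library. Each is written 5′ to 3′ along the transcript, and capitals mark the CG pairs.
Slit3: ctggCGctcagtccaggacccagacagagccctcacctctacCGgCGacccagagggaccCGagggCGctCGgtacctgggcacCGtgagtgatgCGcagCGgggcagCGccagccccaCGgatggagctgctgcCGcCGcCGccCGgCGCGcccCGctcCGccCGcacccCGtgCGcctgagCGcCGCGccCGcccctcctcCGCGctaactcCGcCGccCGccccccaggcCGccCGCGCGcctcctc
Unc5c: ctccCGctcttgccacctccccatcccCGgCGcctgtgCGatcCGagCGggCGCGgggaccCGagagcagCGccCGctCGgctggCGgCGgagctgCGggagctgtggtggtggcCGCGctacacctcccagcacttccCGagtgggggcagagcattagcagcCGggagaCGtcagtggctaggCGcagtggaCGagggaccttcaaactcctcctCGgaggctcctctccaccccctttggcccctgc
Slit2: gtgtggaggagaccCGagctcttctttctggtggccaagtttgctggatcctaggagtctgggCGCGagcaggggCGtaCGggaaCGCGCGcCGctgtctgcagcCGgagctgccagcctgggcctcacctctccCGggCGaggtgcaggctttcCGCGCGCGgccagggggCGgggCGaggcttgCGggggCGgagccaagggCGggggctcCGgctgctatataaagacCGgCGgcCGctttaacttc
Unc5b: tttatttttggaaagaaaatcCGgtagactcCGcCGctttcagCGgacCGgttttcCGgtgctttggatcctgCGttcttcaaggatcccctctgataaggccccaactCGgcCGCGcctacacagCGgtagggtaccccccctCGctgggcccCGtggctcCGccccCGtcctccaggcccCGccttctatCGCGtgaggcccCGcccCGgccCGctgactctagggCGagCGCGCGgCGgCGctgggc
Robo1: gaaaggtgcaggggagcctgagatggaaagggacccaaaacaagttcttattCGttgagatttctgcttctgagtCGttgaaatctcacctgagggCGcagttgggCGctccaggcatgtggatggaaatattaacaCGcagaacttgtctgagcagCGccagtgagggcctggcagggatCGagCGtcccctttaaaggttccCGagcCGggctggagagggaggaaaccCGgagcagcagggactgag

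These sequences lie at chr11:35121206-35121455 on the forward strand for Slit3, chr3:141465314-141465563 on the forward strand for Unc5c, chr5:47982905-47983154 on the forward strand for Slit2, chr10:60831582-60831831 on the reverse strand for Unc5b and chr16:72662899-72663148 on the forward strand for Robo1. The Slit3 sequence held 35 CG pairs, and 3.08% of 31396 promoters of the same length held at least as many. The share was 8.83% at the 27 pairs of Unc5b, 11.0% at the 25 pairs of Slit2 and 13.7% at the 23 pairs of Unc5c. Unc5a also held 25 pairs. Robo1 held 11 pairs, a count that 36.1% of promoters reached. The 3 starts listed for Robo2 held 14, 8 and 4 pairs, against a median of 6 over all promoters. The CG pair reads the same on both strands.

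Coverage below is the number of reads overlapping a bin times the authors' scaling step, averaged over the bins of a window. A start window reached 1 kb to each side of a start. Slit1, Dcc and Unc5d had no listed start or strand, so windows at both gene ends were used, called low and high after their coordinate. A window or 1-kb tile counted as covered at 0.298 or more, which is 5 times the mean coverage per bin of 0.0597. For each pair of libraries the mean was added to both values before the log2 ratio was taken. A ratio of 1 or more was called gained and one of -1 or less was called lost, provided the higher library was covered. Adding the mean shrinks the log2 ratio of low windows. Folds were taken without it and carry exact binomial 95% intervals on estimated reads. The intervals cover counting error only.

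The libraries differed in background. Reads fell in 17.0% of all bins in Braf Base medium, in 56.7% in Braf full medium and in 12.8% in EV, and the median start window of all genes had a coverage of 0.00674, 0.0579 and 0.00456 in the same order. Estimated reads were 5985362 in Braf Base medium, 8648828 in Braf full medium and 5041726 in EV. Over the 51974 tiles covered in all 3 libraries the median plain log2 ratio was -0.25 for Braf Base medium over EV and -0.13 for Braf full medium over EV, and small losses below should be read against that shift.

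**Figure D1:**
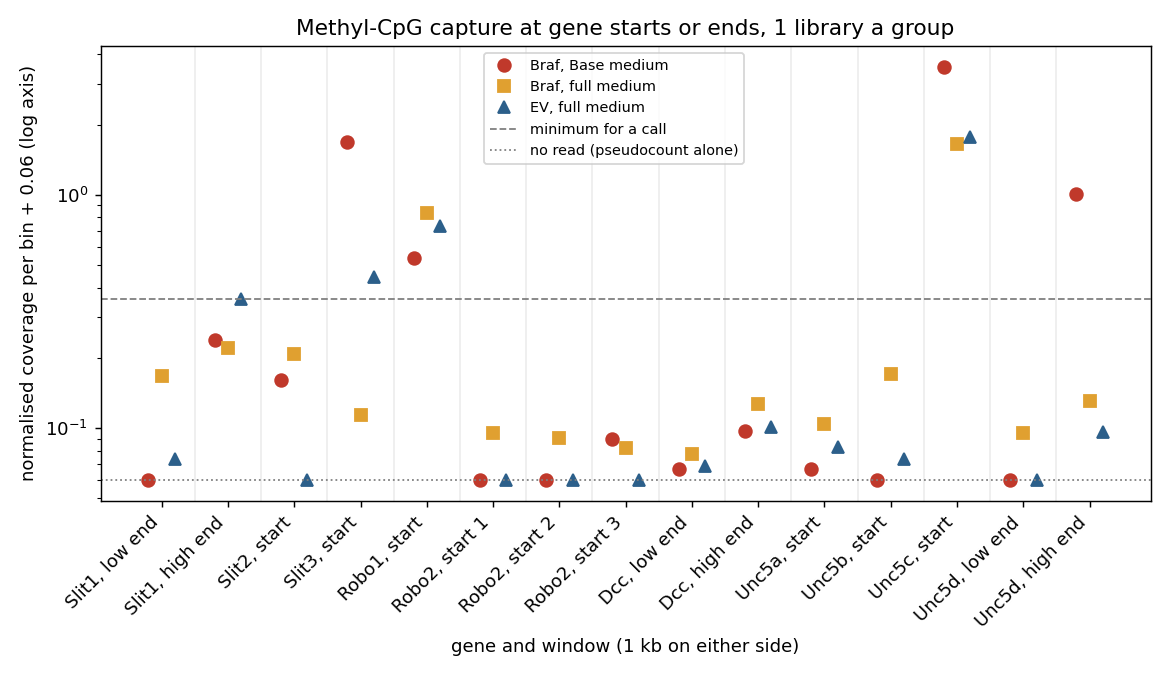
Normalised coverage plus the pseudocount of 0.0597, on a log axis, at the start or end windows of the 10 genes in each of 3 libraries. Points are single libraries without error bars. Slit3, Unc5c and the high end of Unc5d stood highest in Braf Base medium, at 1.62, 3.49 and 0.946, and most other windows lay below the minimum in all libraries.

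Among the ligands, Slit3 had the widest range at its start. Its start window, around position 35121456 of chromosome 11, had a coverage of 1.62 in Braf Base medium, 0.0535 in Braf full medium and 0.383 in EV. The library from Base medium was thus high, EV was in between and Braf full medium was near the median of all start windows in that library. The window was gained in Braf Base medium over EV (log2 ratio 1.92, 4.23-fold, 95% interval 2.91 to 6.24) and over Braf full medium (log2 ratio 3.89, 30.3-fold, interval 12.7 to 93.7). It was lost in Braf full medium over EV, with a log2 ratio of -1.97 and 0.139 times the coverage (interval 0.0426 to 0.359). That loss was no longer a call once the minimum was set at 10 times the mean, or in windows of 2 kb on either side. The reads formed a single stretch centred on the start. Touching bins at or above the minimum ran over chr11:35120801-35122000 in Braf Base medium, from position -655 to position 544 relative to the start, and over chr11:35121001-35121800 in EV. The bin with the highest coverage, chr11:35121401-35121600, held the start itself and stood at 5.33 in Braf Base medium and 1.36 in EV. Braf full medium had no touching bins above the minimum within 5 kb of the start.

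Slit2 differed from EV in both Braf libraries, and after its start rather than at it. The start window around position 47983155 of chromosome 5 had a coverage of 0.101 in Braf Base medium and 0.147 in Braf full medium and no read in EV, where 3 reads would give 0.0340. Against that level of 3 reads, Braf Base medium was 2.97-fold and Braf full medium 4.32-fold higher. Against EV itself, the lower limits of the fold intervals were 2.05 for Braf Base medium and 3.15 for Braf full medium. Both coverages lay below the minimum for a call. This listed start lies inside the gene's span, which begins at position 47981291. Downstream, the stretch chr5:47984001-47985400, from 846 to 2245 bp after the start, had a coverage of 1.49 in Braf Base medium, 1.27 in Braf full medium and 0.0215 in EV. Its bounds were the touching bins at or above the minimum in the Braf libraries, and EV had no such bins there. The contrast with EV is thus partly set by that choice. EV held 3 overlaps, fewer than 3 reads. The fold over EV was 69.4 in Braf Base medium (interval 14.8 to 3346) and 58.9 in Braf full medium (interval 12.4 to 2851). A neighbouring stretch, chr5:47985601-47986600, also bounded by the Braf libraries, was at 3.12 in Braf Base medium, 3.66 in Braf full medium and 0.552 in EV. This was 5.65-fold higher in Braf Base medium (interval 3.64 to 9.33) and 6.62-fold higher in Braf full medium (interval 4.24 to 10.9) than in EV. The Braf libraries were close to each other here, with Braf Base medium at 1.18 times Braf full medium over the nearer stretch (interval 0.873 to 1.60) and 0.853 times over the farther one (interval 0.685 to 1.07).

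Slit1, the third ligand, had no gain at either end. Its high end, which it shares with the long non-coding RNA gene Gm19424, had a coverage of 0.178 in Braf Base medium, 0.160 in Braf full medium and 0.297 in EV. Its low end had no read in Braf Base medium, 0.107 in Braf full medium and 0.0137 in EV. The highest tile of Slit1, chr19:41600001-41601000, lay inside the gene with its middle 2.68 kb from the low end. It was covered in all 3 libraries, at 1.54 in Braf Base medium, 1.42 in Braf full medium and 2.34 in EV, with EV the highest. Background within 5 Mb of Slit1 was lower in Braf full medium relative to EV than over the genome, by a log2 ratio of -0.60. With it divided out, the log2 ratio of Braf full medium over EV was -0.10 at the high end, against -0.70 without that step, and 1.78 at the low end, against 1.18.

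Of the receptors for Slit, Robo1 was covered at its start in every library and Robo2 at none of its 3 starts. The Robo1 start window around position 72663149 of chromosome 16 had a coverage of 0.478 in Braf Base medium, 0.775 in Braf full medium and 0.675 in EV. Its covered stretch ended 851 bp after the start in all 3 libraries. Braf Base medium stood at 0.708 times EV (interval 0.478 to 1.02) and 0.617 times Braf full medium (interval 0.426 to 0.882), with no call. The gene's span begins at position 72027518, so this listed start lies inside it. At Robo2 the start windows had no read in EV, between 0.0223 and 0.0356 in Braf full medium, which is below the median of all start windows there, and no read in Braf Base medium except for 0.0303 at the innermost start.

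**Figure D2:**
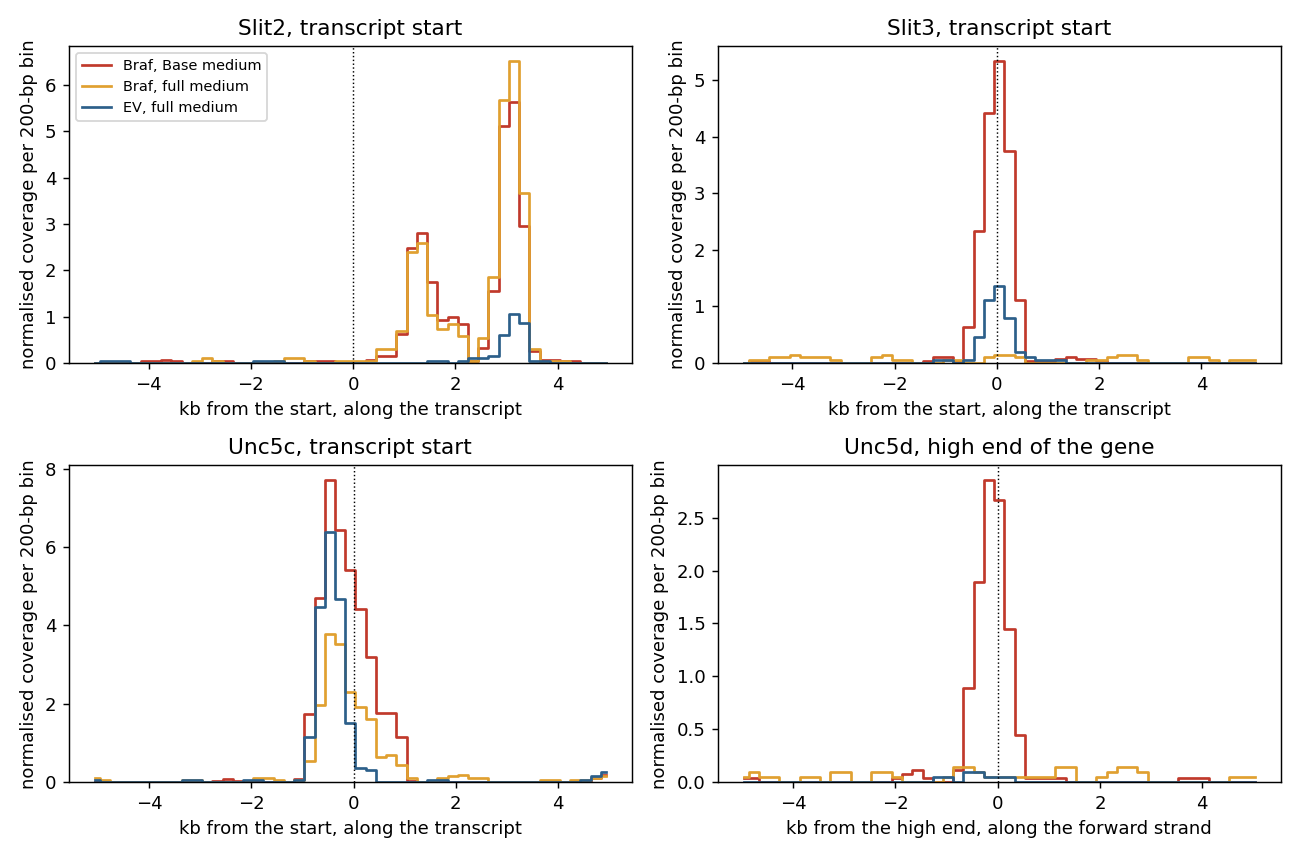
Normalised coverage per 200-bp bin from 5 kb before to 5 kb after the start of Slit2, Slit3 and Unc5c and the high end of Unc5d; each line is 1 library. Slit2 is high after the start in both Braf libraries, and Slit3 and Unc5d are high over the start or end in Braf Base medium. At Unc5c the coverage reaches farther past the start in both Braf libraries than in EV.

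Among the netrin receptors, Unc5c had the highest start window of all 10 genes in every library. Coverage around position 141465564 of chromosome 3 was 3.49 in Braf Base medium, 1.59 in Braf full medium and 1.72 in EV. The window was gained in Braf Base medium over Braf full medium (log2 ratio 1.11, 2.20-fold, interval 1.82 to 2.68). Over EV the difference was 2.03-fold (interval 1.69 to 2.47), with a log2 ratio of 0.999, just short of a call. Background within 5 Mb was itself higher in Braf Base medium, by a log2 ratio of 0.55 relative to EV and 0.57 relative to Braf full medium. With it divided out the log2 ratios of the window were 0.45 over EV and 0.54 over Braf full medium, and neither was a call.

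The place of the Unc5c reads differed more than their sum. Before the bin that holds the start, over chr3:141464601-141465400, coverage was 5.15 in Braf Base medium, 2.45 in Braf full medium and 4.17 in EV. After that bin, over chr3:141465601-141466600, it was 2.46 in Braf Base medium, 1.06 in Braf full medium and 0.131 in EV. EV thus held most of its reads upstream, and its touching bins at or above the minimum ended 436 bp after the start. In both Braf libraries such bins ended 1036 bp after the start. The downstream part was 18.8-fold higher in Braf Base medium than in EV (interval 8.25 to 61.8) and 8.11-fold higher in Braf full medium (interval 3.40 to 27.6). The upstream part was 1.24-fold higher in Braf Base medium than in EV (interval 0.990 to 1.54), and Braf full medium had 0.588 times the coverage of EV (interval 0.442 to 0.779). These parts were set after the profile was seen, and the local background was not divided out of them. The log2 ratios of Braf Base medium over EV were 0.30 upstream and 3.73 downstream, where the local background ratio was 0.55.

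Unc5d was high at its high end in Braf Base medium alone among the 3 libraries. The window around position 29219671 of chromosome 8 had a coverage of 0.946 in Braf Base medium, 0.0713 in Braf full medium and 0.0365 in EV, and was gained over EV (log2 ratio 3.39, 25.9-fold, interval 9.26 to 137) and over Braf full medium (log2 ratio 2.94, 13.3-fold, interval 5.88 to 31.9). Touching bins at or above the minimum ran over chr8:29219001-29220200 in Braf Base medium, crossing the end of the gene. The other libraries had no such stretch there. Over these bounds, set by Braf Base medium, coverage averaged 1.70 in Braf Base medium, 0.0735 in Braf full medium and 0.0586 in EV. The contrast over this stretch is thus partly set by that choice. The low end, on the other side of a gene of 573 kb, had no read in Braf Base medium or EV and 0.0356 in Braf full medium.

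The remaining receptors showed no call at a start or end. Unc5a and Unc5b, whose promoters are as rich in CG pairs as that of Slit2, had start windows of 0.00674 and 0 in Braf Base medium, 0.0445 and 0.111 in Braf full medium, and 0.0228 and 0.0137 in EV. Unc5b carried a covered stretch 4181 to 5180 bp after its start, at 0.889 in Braf Base medium, 1.07 in Braf full medium and 1.16 in EV, and Braf Base medium stood at 0.763 times EV there (interval 0.493 to 1.15). Dcc, the netrin receptor named for its deletion in human colorectal cancer, had 0.0370, 0.0668 and 0.0411 at its high end and 0.00674, 0.0178 and 0.00913 at its low end in Braf Base medium, Braf full medium and EV. Depth limits these values: the counts behind the Dcc ends were 15 overlaps or fewer in each library.

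In Braf Base medium over EV, 2 of the 10 genes gained at a start or end window, Slit3 and Unc5d, and 0 lost, where 4.44% of all genes gained and 0.973% lost. In Braf Base medium over Braf full medium, 3 gained, Slit3, Unc5c and Unc5d, and 0 lost, against 1.85% and 0.992% of all genes. In Braf full medium over EV, 0 gained and Slit3 alone was lost, against 3.34% and 0.634%. The median log2 ratio of the 15 windows was 0 in Braf Base medium over EV, -0.39 in Braf Base medium over Braf full medium and 0.45 in Braf full medium over EV, and over all genes the medians were 0, -0.65 and 0.70. Where the medians of the 15 windows differed from 0, they went the same way as those of all genes. The part of the background of Braf full medium in this was not tested. The calls rest on 3 of the 10 genes.

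**Figure D3:**
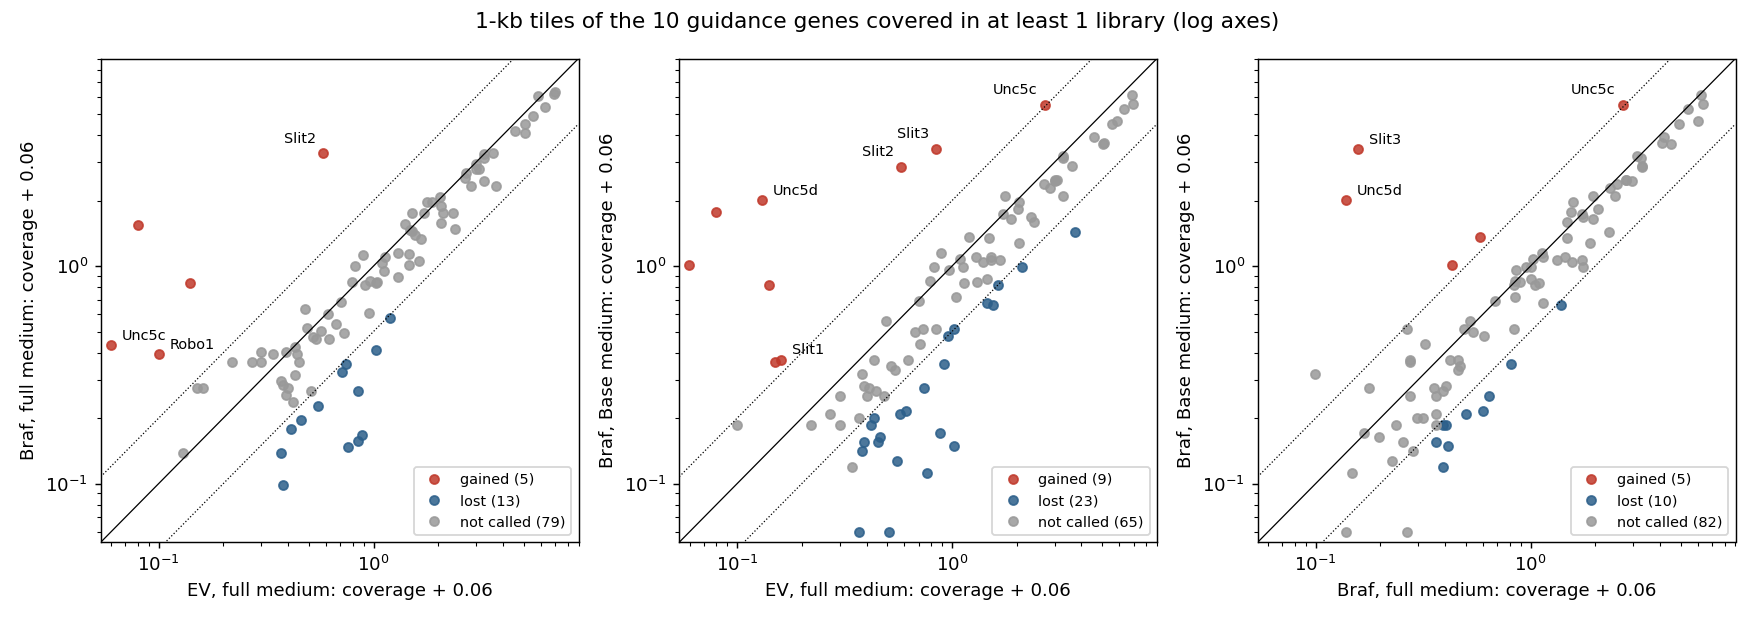
Coverage plus 0.0597 of each of the 97 covered 1-kb tiles of the 10 genes, on log axes, in Braf full medium against EV, Braf Base medium against EV, and Braf Base medium against Braf full medium. Each point is 1 tile, the solid line marks equal values and the dotted lines a 2-fold difference. The gained tiles of Slit2, Slit3 and Unc5d stand far above the line of equal values. The Unc5c tile chr3:141465001-141466000 lies near the upper dotted line in both panels of Braf Base medium. Its neighbour chr3:141466001-141467000 lies far above that line against EV, at log2 ratios of 4.08 in Braf Base medium and 2.86 in Braf full medium. Most other tiles lie along or below equality.

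Tiles inside the genes gave a wider view. Of 5919 tiles in the 10 genes and their flanks, 97 were covered in at least 1 library and 57 in all 3. Covered tiles were 66 in Braf Base medium, 76 in Braf full medium and 85 in EV. They made up 1.12%, 1.28% and 1.44% of the genes' tiles in that order, against 2.39%, 2.70% and 2.84% of all 2462738 tiles. In Braf full medium over EV, 5 tiles gained and 13 were lost, or 0.0845% and 0.220% of the genes' tiles, against 0.179% and 0.205% of all tiles. With equal totals it was 3 and 35, or 0.0507% and 0.591%, against 0.0851% and 1.05% of all tiles. In Braf Base medium over EV, 9 gained and 23 were lost, or 0.152% and 0.389%, against 0.155% and 0.505% of all tiles. With the median of tiles covered in all 3 libraries made equal it was 9 and 13, or 0.152% and 0.220%, against 0.208% and 0.318%. In Braf Base medium over Braf full medium, 5 gained and 10 were lost, or 0.0845% and 0.169%, against 0.073% and 0.225% of all tiles. With equal totals, which shift every tile alike, it was 13 and 0, or 0.220% and 0%, against 0.773% and 0.0411% of all tiles. Counted over all tiles, covered or not, the genes' shares were thus close to those of all tiles or below them in each comparison. The genes' tiles were also covered less often than all tiles.

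The same counts were also read over covered tiles. Of the tiles covered in either library, 9.89% of 91 in the 10 genes gained in Braf Base medium over EV and 25.3% were lost, where over the genome 5.09% gained and 16.6% were lost. For Braf full medium over EV, 5.32% of 94 gained and 13.8% were lost, against 5.71% and 6.55% over the genome. For Braf Base medium over Braf full medium, 6.10% of 82 gained and 12.2% were lost, against 2.55% and 7.85%. Over covered tiles the genes' shares thus lay above those of the genome, except for gains in Braf full medium over EV. This difference was not tested.

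Most of the gained tiles had their middle at most 3.35 kb from a listed start or, for Unc5d, a gene end. The same share over all gained tiles was not counted. In Braf Base medium over EV they were 3 touching tiles at Slit2 (chr5:47984001-47987000), 1 at the Slit3 start, 2 at the Unc5c start, 1 at the Unc5d high end, and single weak tiles inside Unc5c and Slit1 that stood at 0.304 and 0.311, just past the minimum. With the local background ratio divided out, 7 tiles gained in this comparison, or 0.118%, against 0.151% of all tiles. The Unc5c tile chr3:141465001-141466000 had a log2 ratio of 1.02 before that step, where the local background ratio was 0.55. The tile chr3:141466001-141467000 of Unc5c had no read in EV and stood at 0.948 in Braf Base medium and 0.372 in Braf full medium. In Braf full medium over EV the 3 Slit2 tiles and that Unc5c tile gained, with a weak tile of Robo1 at 0.333. With equal totals the 3 Slit2 tiles were still called and the Unc5c and Robo1 tiles were not, and the Robo1 tile was not called with background subtracted either.

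The tiles lost in Braf Base medium all lay inside the genes. In Braf full medium over EV, those lost also took in the Slit3 start, the upstream tile of Unc5c and the high end of Slit1; the Slit1 call ended with the local background divided out. Slit3 lost interior tiles in both Braf libraries: chr11:35178001-35179000 stood at 0.0519 in Braf Base medium, 0.0882 in Braf full medium and 0.703 in EV, and chr11:35629001-35630000 at 0.111, 0.108 and 0.823. EV was the high library at both. Unc5a lost the most tiles in Braf Base medium over EV, 7 of its 9 covered ones, all with their middle 41.1 to 56.1 kb after the start. Its highest tile, chr13:54997001-54998000, stood at 1.37 in Braf Base medium, 2.26 in Braf full medium and 3.67 in EV, or 0.373 times EV in Braf Base medium (interval 0.281 to 0.4998). The next but one, chr13:54999001-55000000, stood at 0.0889, 0.353 and 0.964 in the same order, so EV was highest and Braf full medium in between. Robo2 lost 5 tiles in the same comparison, Unc5b 2, Robo1 2, and Dcc and Unc5d 1 each.

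**Figure D4:**
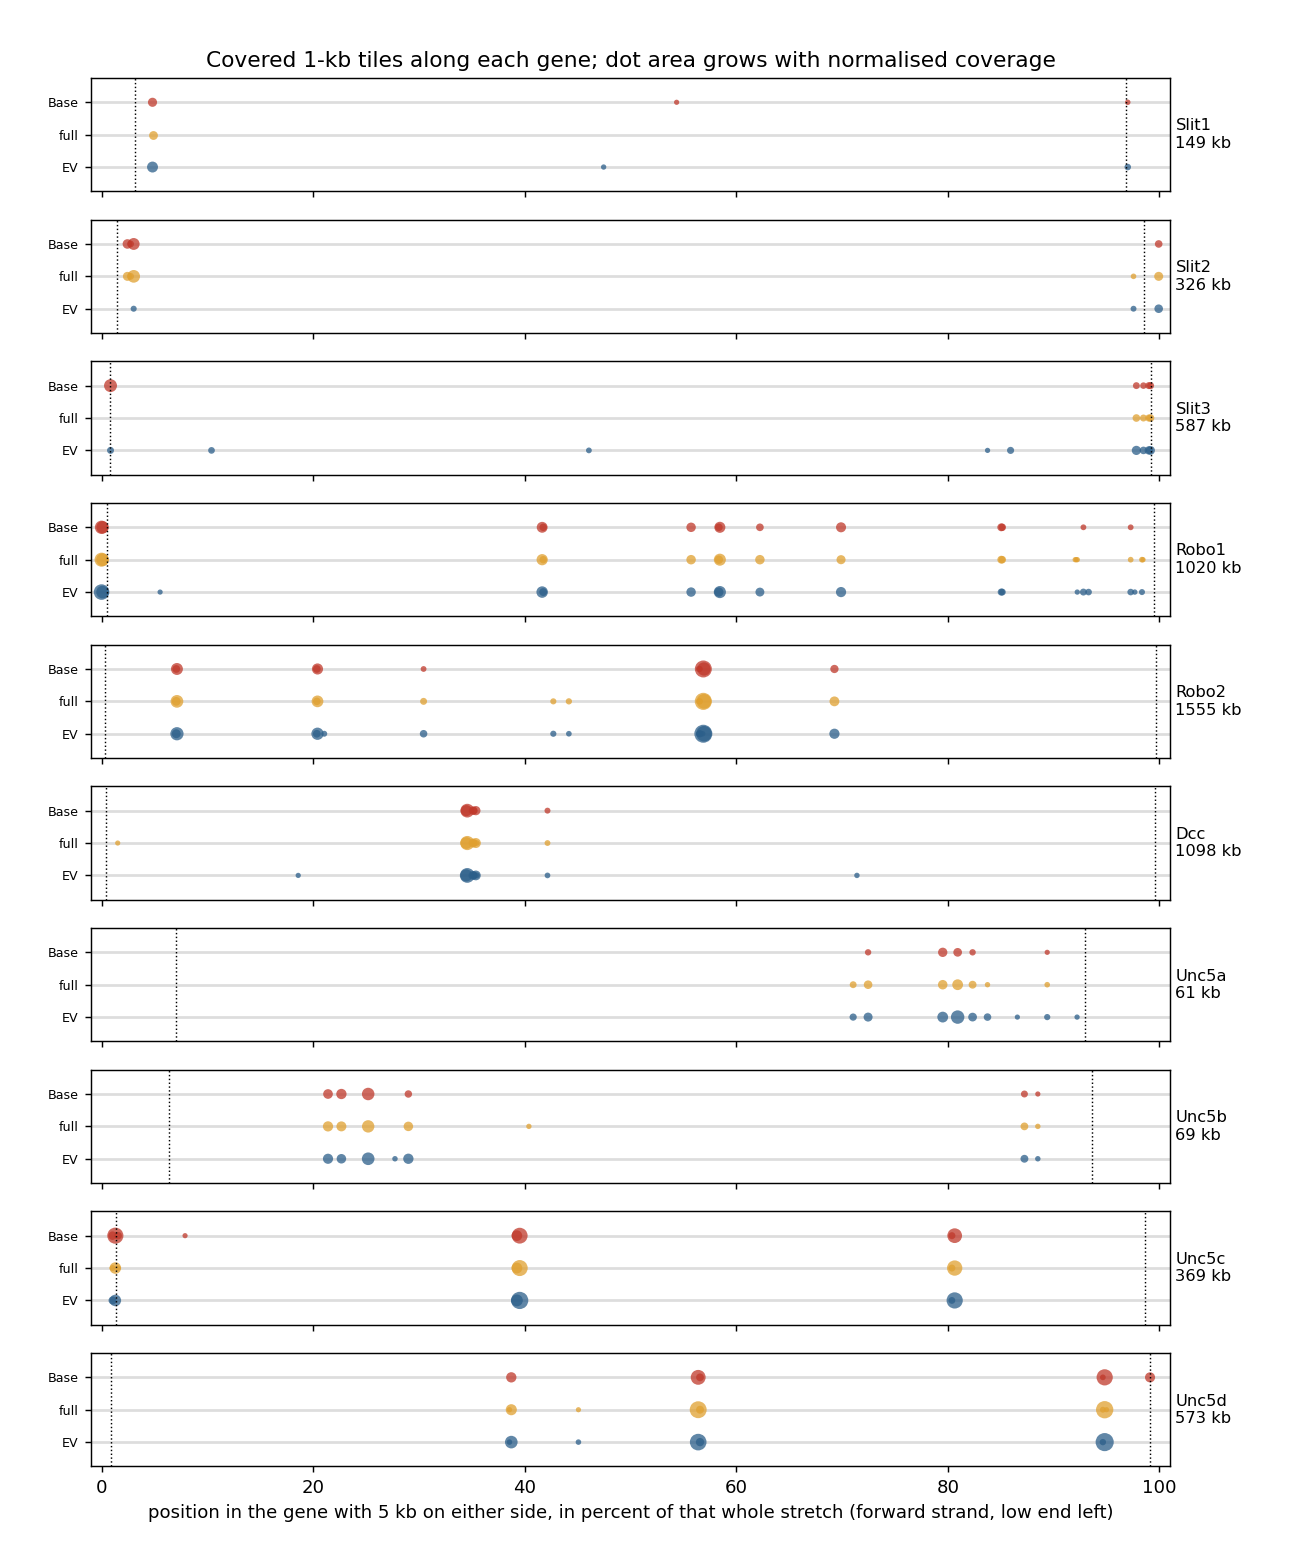
Covered 1-kb tiles along each gene with 5 kb on either side, drawn at their position in percent of that stretch, with 1 lane for each library; dot area grows with normalised coverage and dotted lines mark the gene's ends. Robo1, Robo2, Dcc, Unc5c and Unc5d hold strong tiles at the same places in all 3 libraries, while the dots at the Slit3 start and the Unc5d high end differ between lanes.

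Strong tiles inside the long receptor genes were covered in all 3 libraries, most of them highest in EV. In Robo2, chr16:74777001-74778000 stood at 6.03 in Braf Base medium, 6.13 in Braf full medium and 6.83 in EV. In Unc5d, chr8:29194001-29195000, inside the gene on the side that gained, stood at 5.48, 6.28 and 6.91 in the same order, while chr8:28970001-28971000 was highest in Braf full medium, at 4.56, 5.98 and 5.77. In Unc5c, chr3:141610001-141611000 stood at 5.22, 5.35 and 6.23. At this Unc5c tile Braf Base medium had 0.838 times the coverage of EV (interval 0.704 to 0.996), where the window at the start of the same gene had 2.03 times. In the flank of Robo1, chr16:72022001-72023000 stood at 3.62 in Braf Base medium, 4.03 in Braf full medium and 5.03 in EV. Dcc held 6 tiles covered in all 3 libraries, the highest being chr18:71631001-71632000 at 3.85 in Braf Base medium, 4.11 in Braf full medium and 4.50 in EV. Over the 57 tiles of the 10 genes covered in all 3 libraries the median plain log2 ratio was -0.31 for Braf Base medium over EV and -0.14 for Braf full medium over EV, near the -0.25 and -0.13 of all such tiles.

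Of 46 other genes of the Slit and netrin pathways, 45 were measured. At a start or end window 2 gained and 1 was lost in Braf Base medium over EV, or 4.44% and 2.22%, where 4.44% and 0.973% of all genes did. In Braf Base medium over Braf full medium 1 gained and 0 were lost, or 2.22% and 0%, against 1.85% and 0.992%. In Braf full medium over EV 1 gained and 1 was lost, or 2.22% each, against 3.34% and 0.634%. With at most 2 genes in a count, these shares do not set the list apart from all genes, and the called genes are named as values only. Lrig3, a membrane protein with leucine-rich repeats, stood at 1.62 in Braf Base medium, 0.107 in Braf full medium and 0.0137 in EV at its start on chromosome 10. Dapk1, a death-associated kinase that acts downstream of Unc5b, stood at 3.55, 1.87 and 0.675. Cap2, an actin-binding protein, was lost, at 0.0707 in Braf Base medium, 0.129 in Braf full medium and 0.739 in EV. Ntn1, the netrin that binds Dcc and the Unc5 receptors, had no read at either end in EV and at most 0.0539 in Braf Base medium and 0.0846 in Braf full medium. Neo1, a receptor closely related to Dcc, had no read at its start in Braf Base medium or EV and 0.0267 in Braf full medium.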

How the data were processed

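The 10 genes and the gene lists were chosen with earlier results of these data known. Per the labels' protocols, DNA was sheared to 200 to 400 bp, enriched with methyl-CpG-binding protein and read from a single end over 50 bp. The submitters' processing notes name Bowtie2 and mm10; the version and the scoring of bins were not given in the sources used here. As deposited by the authors, the table holds log2 values for 200-bp bins on chromosomes 1 to 19. Raising 2 to each value gave a shared floor of 0.0153 plus whole steps (tolerance 0.001 of a step) of 0.0370 in Braf Base medium, 0.0490 in Braf full medium and 0.0502 in EV, taken as read overlaps; a read spanned about 2.48, 2.42 and 2.49 bins.

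Scripts ran in Python 3.11.15 with NumPy 2.4.6, pandas 2.3.3 and SciPy 1.17.1. Calls were tested on counts simulated from tiles covered in EV. That test did not cover tiles below the minimum in EV or the background of Braf full medium. The rule for named items took all 10 genes, up to 3 runs of called tiles in each, Ntn1, Neo1 and up to 4 called pathway genes per comparison. Gene spans came from a RefSeq table on GRCm38.p6. No genome was used, so exons and CpG content inside genes were not analysed here.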

Additional observations from a re-analysis of the deposited data

How the results depend on the processing

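No paired analysis was possible because each group held 1 library; for the same reason no library could be left out. The gains at Slit3 and Unc5d in Base medium held in all alternatives that bear on windows. Unc5c was called over EV with equal totals, an equal median, background subtracted, a smaller pseudocount or windows of 500 bp. Beside each count of the 10 genes' tiles, the share of all tiles called under the same setting is given in parentheses. With equal totals, 2 genes were lost at a window in Braf full medium over EV, where 2.08% of all genes were lost. Under that setting 3 tiles gained (0.0851%) and 35 were lost (1.05%) in that comparison. In Braf Base medium over Braf full medium 13 tiles gained (0.773%) and 0 were lost (0.0411%). In the last comparison 6 were lost with background subtracted (0.153%), and 3 gained with the local background ratio divided out (0.0635%). A minimum of 2 times the mean gave 1 gene gained at a window, where 7.83% of all genes gained, and 91 tiles gained (2.82%) and 23 lost (0.354%) in Braf full medium over EV, 54 lost (0.984%) in Braf Base medium over EV and 112 lost (3.13%) in Braf Base medium over Braf full medium. A minimum of 10 times the mean gave 0 genes lost at a window in Braf full medium over EV, against 0.3% of all genes. It gave 3 tiles gained (0.0818%) and 8 lost (0.0953%) in that comparison. In the other comparisons 12 (0.243%) and 2 (0.0677%) tiles were lost, in the same order. A pseudocount 4 times as large left 6 (0.0704%), 11 (0.235%) and 0 (0.0897%) lost, and 3 gained (0.0396%) in Braf Base medium over Braf full medium. Windows of 2 kb on either side gave 1 gene gained, Slit2, and 0 lost in Braf full medium over EV, against 2.60% and 0.276% of all genes. Tiles of 400 bp gave 16 gained (0.205%) and 37 lost (0.293%) in Braf full medium over EV, 19 (0.145%) and 62 (0.555%) in Braf Base medium over EV, and 13 (0.0888%) and 24 (0.282%) in Braf Base medium over Braf full medium. Tiles of 2 kb gave 2 (0.174%) and 4 (0.131%), 5 (0.173%) and 6 (0.438%), and 3 (0.0649%) and 3 (0.170%) in that order. With the median of tiles covered in all 3 libraries made equal, a setting chosen after seeing the data, 13 were lost (0.318%) in Braf Base medium over EV. Smaller and larger tiles change how many are tested; for the rest the cause was not tested.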

Other observations

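The hairpin of the microRNA miR-218 lies inside both Slit2 and Slit3. The 1 kb on either side of the Mir218-1 hairpin in Slit2 had a coverage of 0.0926 in Braf Base medium, 0.184 in Braf full medium and 0.176 in EV. Around the Mir218-2 hairpin in Slit3 coverage was 0.0573 in Braf Base medium, 0.156 in Braf full medium and 0.224 in EV. All 6 values lay below the minimum of 0.298, and Braf Base medium was the lowest library at both hairpins, unlike at the Slit3 start. The single tile that holds Mir218-2, chr11:35616001-35617000, was covered in EV alone, at 0.321. Its other values were 0.0815 (Braf Base medium) and 0.225 (Braf full medium). This tile was called lost in Braf Base medium over EV, with a log2 ratio of -1.43. Mir691, inside Robo2, had no read within 1 kb on either side in Braf Base medium or EV.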
